A study of Mus musculus with 14 samples.

Results

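Cholesterol and fatty acids are built from the same cytosolic acetyl-CoA, and the genes of both routes answer to the sterol regulatory element-binding proteins (SREBPs). SREBP precursors sit in the membrane of the endoplasmic reticulum bound to SCAP, a sterol sensor, and INSIG proteins hold that complex there when sterol is plentiful. When sterol falls, SCAP carries the precursors to the Golgi, where they are cut and released as transcription factors, with SREBP2 acting mainly on sterol genes and SREBP1 mainly on fatty acid genes. In the lung, alveolar type 2 cells make the lipid of surfactant and alveolar macrophages take it up and clear it.

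The results below concern 34 genes of these routes, chosen by symbol and found by their Ensembl identifiers in a table of 52550 rows. They comprised 5 genes for the SREBPs and their regulators, 17 enzymes from acetyl-CoA to cholesterol (sterol enzymes), and 12 enzymes that supply acetyl-CoA or make, desaturate and elongate fatty acids (fatty acid enzymes). All 34 were found and all 34 passed the filter on low counts, which kept 16836 genes.

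RNA was sequenced from 14 mouse lung adenocarcinomas, 6 labelled KPY-Ctrl and 8 labelled KPY-Setd2KO. Every mouse carried Trp53 flox/flox and Rosa26 LSL-YFP alleles on a mixed strain background, and the tumors were started through the airway with a lentivirus that expresses Cre, Cas9 and a guide RNA. The guide was sgBGal, aimed at a bacterial gene, in KPY-Ctrl and sgSetd2 in KPY-Setd2KO, so that both groups lost Trp53 and carried Cas9. Setd2 encodes the methyltransferase that trimethylates lysine 36 of histone H3. By the study's methods, tumors were dissected one by one and live cells positive for the Cre-activated YFP reporter were sorted. The sample labels name a preparation from cell lines instead, and this difference could not be settled. The edited alleles of each tumor were not read here. The tumors came from fewer mice than tumors in each genotype, and the mouse behind each tumor is not given in the sources used here, so every p-value below treats tumors as independent. Age at collection was likewise not given for these tumors.

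Libraries held 27866266 to 51828846 estimated counts each for KPY-Ctrl, against 20072236 to 40604404 for KPY-Setd2KO. The targeted gene was measured first. Setd2 ranged from 41.9 to 63.6 CPM (counts scaled to the library total, with trimmed mean of M values factors) with a median of 53.8 in KPY-Ctrl, and from 18.0 to 47.4 with a median of 30.5 in KPY-Setd2KO. The log2 fold change was -0.74 (SE 0.22, edgeR quasi-likelihood adjusted p = 0.175), and a two-sided exact permutation test of log2 CPM over 3003 splits gave p = 0.00466. The groups overlapped, so the labels were taken as given.

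The tumors differed widely in RNA of other cells. A leukocyte score, the mean log2 CPM of 12 pan-leukocyte genes such as Ptprc, fell into 2 separate clusters, with 7 tumors from 3.51 to 5.61 and 7 tumors from 8.22 to 9.16. The leukocyte-low tumors were 3 KPY-Ctrl (replicates 3, 4 and 5) and 4 KPY-Setd2KO (replicates 5 to 8). The leukocyte-high tumors were 3 KPY-Ctrl (replicates 1, 2 and 6) and 4 KPY-Setd2KO (replicates 1 to 4). No record of the sort or of a batch is given in the sources used here, so neither can be told apart from the clusters. The summed CPM of 14 macrophage markers was at most 1775 in the first and at least 17450 in the second, while 12 T cell, B cell and neutrophil markers summed to at most 37.9 in any tumor. An alveolar type 2 score over 11 genes such as Sftpc ran from 9.41 to 10.91 in the leukocyte-low and from 7.92 to 9.49 in the leukocyte-high tumors. Neither score differed detectably between genotypes (two-sided exact permutation tests over 3003 splits, p = 0.732 for leukocytes with a mean difference of 0.33, and p = 0.344 for alveolar type 2 with -0.51). These clusters were defined from the data and are not groups of the study. In bulk RNA, fewer cells of a type and less RNA per cell cannot be told apart.

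What the promoters of the genes share was read from sequences of RefSeq (build GRCm38.p6), which held a promoter of 250 bases before to 50 bases after a start site for 28 of the 34 genes. Sqle, Scd1, Scd2, Fads1, Fdps and Fdft1 had no entry. The letters CCAAT, the box bound by the factor NF-Y, were found on either strand in 24 of these 28 genes (85.7%), against 42.4% of the 11490 tested genes with a promoter. Acaca, Elovl6, Fads2 and Scap held none. GGGCGG, a GC box of the kind bound by SP1, was found in 22 (78.6%), against 64.8%. TCACNCCAC, one form of the sterol regulatory element, was found in Hmgcs1 alone (3.57%, against 1.32%). The stretches below show the promoter with the sterol element (Hmgcs1), the regulator with the widest range between tumors (Insig1), the fatty acid synthase with its cluster of boxes (Fasn), and the elongase with the smallest genotype p (Elovl6). Each was taken from the longest stretch before the start site that was free of annotated exons of any gene on either strand. The stretches of Hmgcs1 and Fasn end at the start site and those of Insig1 and Elovl6 at an annotated exon upstream of it, and capitals mark CCAAT or its complement ATTGG, and TCACCCCAC in Hmgcs1.
Hmgcs1 promoter, GRCm38.p6, chr13:119690151-119690350, plus strand: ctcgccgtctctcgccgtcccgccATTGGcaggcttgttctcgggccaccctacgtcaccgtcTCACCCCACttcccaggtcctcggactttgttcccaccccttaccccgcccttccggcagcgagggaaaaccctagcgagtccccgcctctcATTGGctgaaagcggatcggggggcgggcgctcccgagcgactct
Insig1 promoter, GRCm38.p6, chr5:28071162-28071362, plus strand: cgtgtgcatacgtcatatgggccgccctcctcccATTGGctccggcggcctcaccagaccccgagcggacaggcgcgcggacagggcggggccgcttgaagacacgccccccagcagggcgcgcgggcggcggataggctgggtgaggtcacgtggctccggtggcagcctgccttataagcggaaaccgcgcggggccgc
Fasn promoter, GRCm38.p6, chr11:120824548-120824747, minus strand: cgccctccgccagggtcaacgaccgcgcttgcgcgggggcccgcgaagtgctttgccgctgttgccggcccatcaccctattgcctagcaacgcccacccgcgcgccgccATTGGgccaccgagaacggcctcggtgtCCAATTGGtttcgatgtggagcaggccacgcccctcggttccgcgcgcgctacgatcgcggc
Elovl6 promoter, GRCm38.p6, chr3:129532136-129532256, plus strand: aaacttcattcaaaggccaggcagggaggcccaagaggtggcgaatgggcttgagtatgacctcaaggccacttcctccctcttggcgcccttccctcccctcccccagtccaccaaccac
In the Hmgcs1 stretch the sterol element lies between 2 CCAAT boxes. In the Fasn stretch 3 boxes are marked, of which 2 overlap on opposite strands as CCAATTGG. The Insig1 stretch holds 1 box, and the Elovl6 stretch holds none of the 3 motifs. A match of letters is a description and does not show that a factor was bound in these tumors.

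Per length, fatty acid enzymes held both ends of the order of the 34 genes. The highest 6 were fatty acid enzymes, and the other 6 ranked from 20 to 34. Scd1, the desaturase that makes monounsaturated fatty acids in lipogenic tissues, had the highest median over all 14 tumors at 172 RPKM (counts scaled by library total and by kilobases of exon), and the elongase Elovl1 followed at 78.2 and Scd2, another desaturase of the same family, at 74.7 RPKM. Elovl5, Acly and Fasn came next at 51.0, 46.4 and 36.0 RPKM. This order pools the genotypes. In KPY-Ctrl alone the medians of Scd2, Elovl1 and Scd1 were 97.1, 87.5 and 86.9 RPKM, so Scd1 did not lead there. In KPY-Setd2KO they were 70.0, 67.6 and 193.9 RPKM. The highest sterol enzymes were Ebp, the sterol isomerase, at 29.7 RPKM and Cyp51, which removes a methyl group from lanosterol, at 24.8 RPKM. At the other end, Tm7sf2, a sterol reductase, had 1.21 RPKM, Acss2, which makes acetyl-CoA from acetate, had 0.775, and Acacb, the mitochondrial acetyl-CoA carboxylase, had 0.253. The ranges of neighbours in this order overlapped, and Scd1 and Scd2 have similar sequences, so reads may be shared unequally between them.

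**Figure D1:**
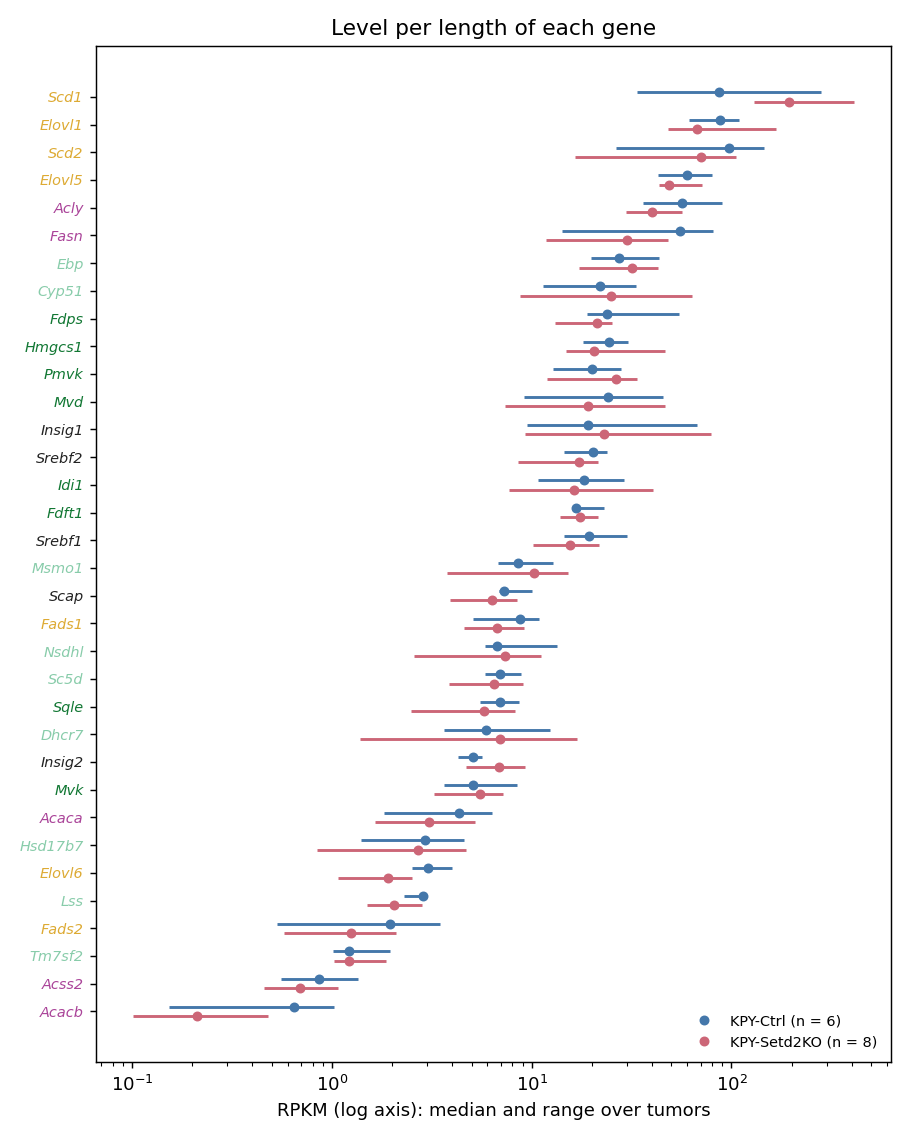
RPKM on a log axis for the 34 genes, with the median (point) and range (line) over 6 KPY-Ctrl and 8 KPY-Setd2KO tumors, colored by role as in the heat map. Genes are in order of the median over all tumors, with Scd1, Elovl1 and Scd2 at the top and Acacb at the bottom. In KPY-Ctrl alone the median of Scd2 is above that of Scd1. The ranges of the genotypes overlap for every gene but Elovl6.

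The largest differences between tumors were not between genotypes. The mean log2 CPM of the 12 fatty acid enzymes exceeded that of the 17 sterol enzymes by 1.15 to 1.88 in the 7 leukocyte-low tumors, whereas the sterol minus fatty acid difference lay between -0.33 and 0.60 in the 7 leukocyte-high tumors. The tumor clusters did not overlap in this difference. The sterol mean was 4.40 to 5.00 in the leukocyte-low and 5.43 to 5.83 in the leukocyte-high tumors, without overlap. The fatty acid mean was 5.84 to 6.71 and 5.20 to 5.90, ranges that overlapped. These are means of levels over genes and carry no test.

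**Figure D2:**
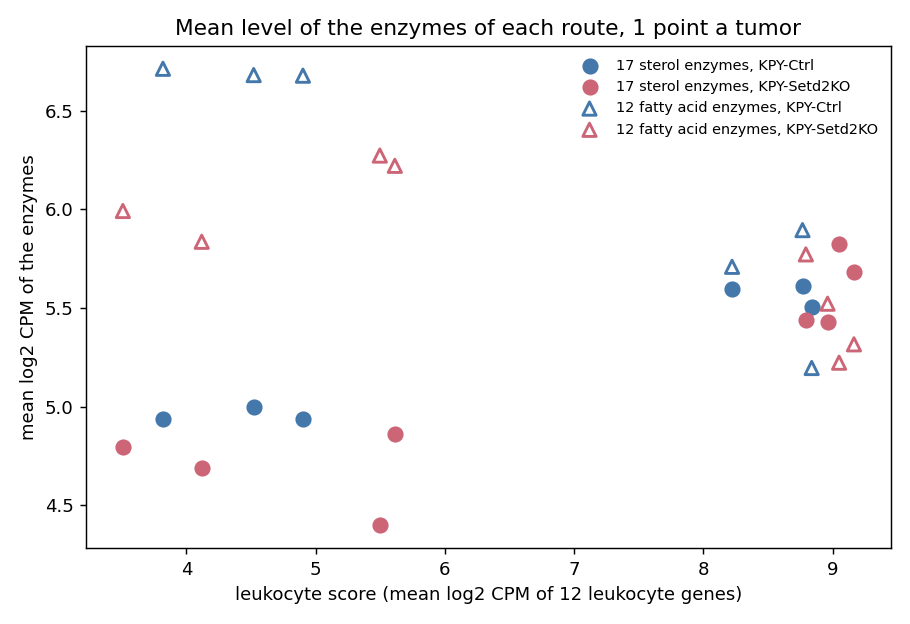
Mean log2 CPM of the 17 sterol enzymes (filled circles) and the 12 fatty acid enzymes (open triangles) against the leukocyte score, 1 point of each kind per tumor. Sterol means are at most 5.00 at scores up to 5.61 and at least 5.43 from 8.22, while the fatty acid means of the clusters overlap between 5.84 and 5.90.

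The dependence was tested for each gene as a slope on the leukocyte score, in a fit that also held genotype (edgeR, Benjamini-Hochberg over 16836 genes, called at adjusted p under 0.05). A slope is the log2 change for 1 unit of score. This fit called 57.4% of all tested genes, 28.6% higher and 28.8% lower, and 23 of the 34 genes, 13 higher and 10 lower, so the count itself is near the background. The split by role was sharper than the count. Of the 17 sterol enzymes, 11 rose with the score and 0 fell (median slope 0.14), and of the 12 fatty acid enzymes, 0 rose and 8 fell (median slope -0.20). Scaled by library size alone, which moved the median slope of all tested genes from -0.01 to -0.09, the fit called 59.1% of them, 18.7% higher and 40.4% lower, and 22 of the 34 genes, 8 higher and 14 lower. Of the sterol enzymes 7 then rose and 1 fell (median slope 0.06), and of the fatty acid enzymes 0 rose and 11 fell (median slope -0.30).

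Among the regulators, Insig1 rose and Srebf1 fell. Insig1, which retains the SCAP complex and is itself a classic SREBP target, ranged from 28.7 to 52.4 CPM in the leukocyte-low and from 66.1 to 243 CPM in the leukocyte-high tumors, so that the clusters did not overlap. Its slope was 0.47 (SE 0.06, adjusted p = 1.90e-05). Srebf1 ranged from 105.6 to 169 CPM in the leukocyte-low and from 57.1 to 90.0 CPM in the leukocyte-high tumors, again without overlap, and its slope was -0.18 (SE 0.02, adjusted p = 2.73e-05). Scap rose slightly (slope 0.12, SE 0.03, adjusted p = 0.00338), a call lost with library size alone (0.04, adjusted p = 0.28), and Insig2, the other retention protein, fell slightly (slope -0.08, SE 0.03, adjusted p = 0.0266). Srebf2, which encodes the factor held to act mainly on sterol genes, had a slope of 0.02 (SE 0.04, adjusted p = 0.634), or -0.06 with library size alone.

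Of the sterol enzymes, Dhcr7, which reduces the last double bond on the way to cholesterol, had the steepest slope at 0.51 (SE 0.05, adjusted p = 2.06e-06). It ranged from 8.07 to 25.3 CPM in the leukocyte-low and from 43.5 to 97.8 CPM in the leukocyte-high tumors. Mvd, the decarboxylase that yields isopentenyl diphosphate, ran from 13.7 to 25.8 CPM in the first and from 45.5 to 86.5 CPM in the second, with a slope of 0.46 (SE 0.03, adjusted p = 5.29e-09). Both genes separated the clusters completely, as did Insig1 and Srebf1. The share of all tested genes that separated the clusters is not given here, so this cannot be read as particular to these genes. Ebp was at most 58.1 CPM in the first and at least 79.0 CPM in the second, and had a slope of 0.22 (SE 0.02, adjusted p = 1.83e-06). Tm7sf2 had a slope of -0.10 (SE 0.04, adjusted p = 0.063), the 1 value below 0 of the 17, and with library size alone its slope was -0.19 (adjusted p = 0.00256) and 5 of the 17 lay below 0. Around the squalene-forming step the slopes did not pass the test, at 0.10 (SE 0.05, adjusted p = 0.0653) for Fdps, which makes farnesyl diphosphate, and 0.02 for Fdft1 (squalene synthase) and for Sqle (squalene epoxidase). Fdft1 and Sqle were named after their values were seen, and their adjusted p-values were 0.547 and 0.736. Both had a slope of -0.06 with library size alone.

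Of the fatty acid enzymes, Scd2 had the steepest fall, with a slope of -0.35 (SE 0.06, adjusted p = 8.42e-05). Its levels were 471 to 793 CPM in the leukocyte-low and 90.3 to 345 CPM in the leukocyte-high tumors. Fasn, the multifunctional fatty acid synthase, named here after its values were seen, ranged from 359.5 to 889 CPM and from 128.8 to 429.5 CPM, with a slope of -0.28 (SE 0.06, adjusted p = 9.83e-04). Acacb had a slope of -0.30 (SE 0.09, adjusted p = 0.0115), Scd1 of -0.27 (SE 0.08, adjusted p = 0.00975) and Acly, which splits citrate into acetyl-CoA, of -0.14 (SE 0.04, adjusted p = 0.00592). Elovl6, which elongates palmitate, had a slope of 0.07 (SE 0.04, adjusted p = 0.139), the 1 value above 0 of the 12, and of -0.0036 with library size alone.

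**Figure D3:**
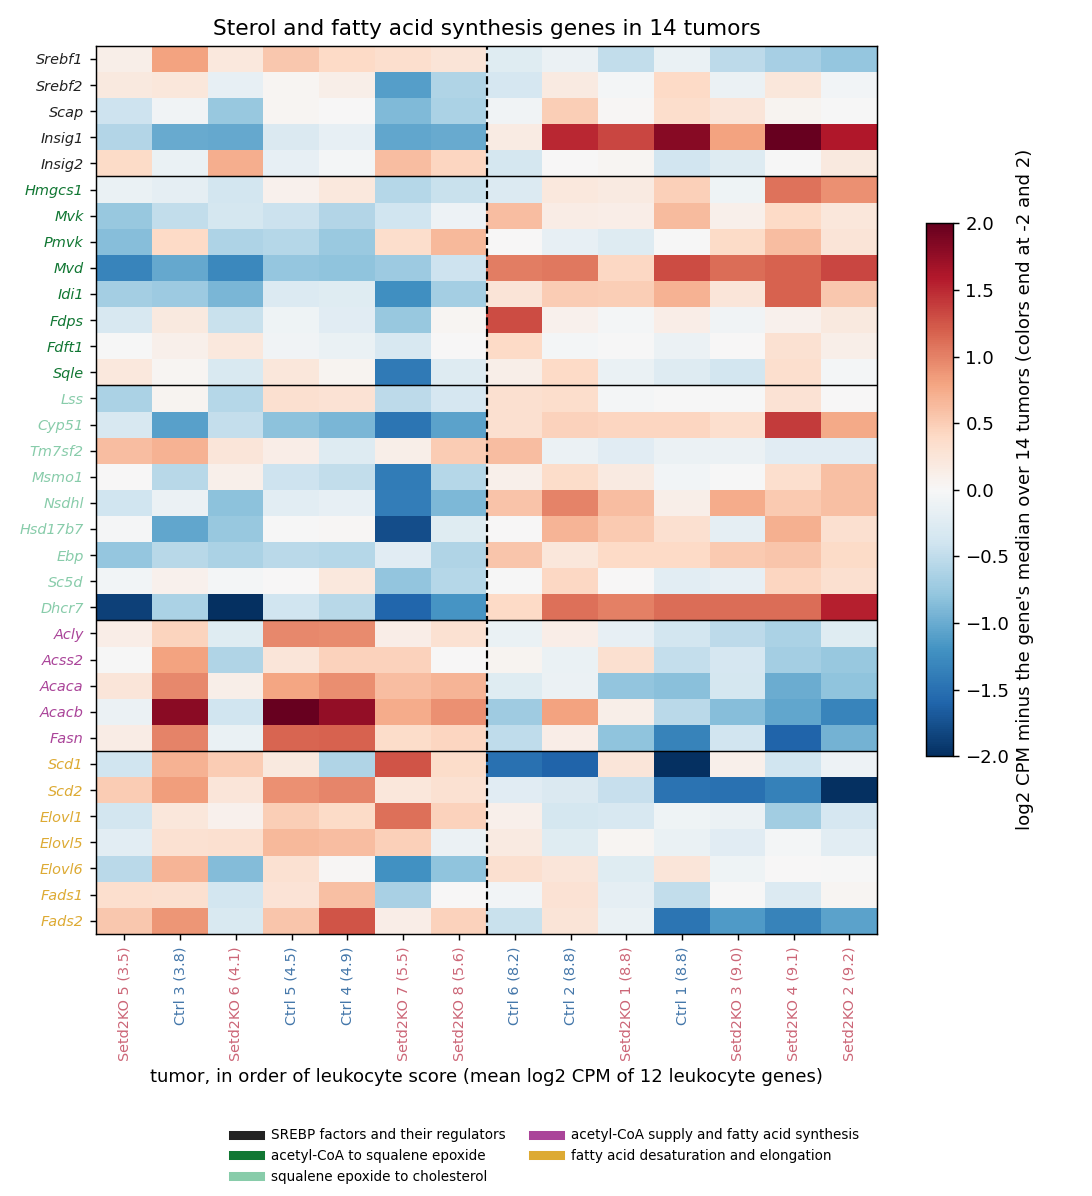
Log2 CPM of each of the 34 genes minus its median over 14 tumors, with tumors ordered by leukocyte score (given in brackets) and a dashed line at the gap between 5.61 and 8.22. Insig1, Mvd and Dhcr7 are low on the left and high on the right, and Fasn, Acacb and Scd2 run the other way.

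The slope on the alveolar type 2 score was nearly the mirror image. It was called for 50.7% of all tested genes (25.3% higher, 25.4% lower) and for 25 of the 34 genes, 11 higher and 14 lower. Of the 17 sterol enzymes 0 rose and 11 fell (median slope -0.42), and of the 12 fatty acid enzymes 10 rose and 0 fell (median slope 0.55). Scaled by library size alone, which moved the median slope of all tested genes from 0.02 to 0.16, the fit called 55.2% of them (36.8% higher, 18.4% lower) and 21 of the 34 genes, 13 higher and 8 lower. Of the sterol enzymes 1 (Tm7sf2) then rose and 7 fell, and of the fatty acid enzymes 10 rose and 0 fell. Slopes were -1.15 (SE 0.13, adjusted p = 3.69e-05) for Insig1, -1.10 (SE 0.20, adjusted p = 8.19e-04) for Dhcr7 and 0.86 (SE 0.16, adjusted p = 8.45e-04) for Scd2. The scores ran in opposite directions over the same 14 tumors, so the slopes are not separate evidence.

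Holding the leukocyte score in the same fit left 7 of the 34 genes with a slope on the alveolar type 2 score, against 5.41% of all tested genes (3.12% higher, 2.29% lower). Higher with the alveolar type 2 score were Acaca, the cytosolic acetyl-CoA carboxylase (0.48, SE 0.12, adjusted p = 0.0334), and Elovl1, an elongase of very long chains (0.66, SE 0.10, adjusted p = 0.00475). Lower were Srebf2 (-0.53, SE 0.12, adjusted p = 0.0203), Insig1 (-0.71, SE 0.18, adjusted p = 0.0332), and the sterol enzymes Idi1, Cyp51 and Msmo1, of which Cyp51 had the steepest slope (-0.80, SE 0.11, adjusted p = 0.00266). Acaca, Elovl1, Idi1, Cyp51 and Msmo1 were named after their values were seen. The count fell to 1 without KPY-Setd2KO replicate 5 or replicate 7, to 2 without replicate 8 and to 4 without replicate 3 or replicate 4.

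These slopes could not be separated from the contrast between the clusters. With a term for the side of the gap added, 0 of the 34 genes had a called slope on the leukocyte score, 1 on the alveolar type 2 score and 0 on the latter with the leukocyte score held. That term takes up most of the spread of the leukocyte score, so the lost calls do not show that slopes within the clusters are absent. The share of all genes called with it is not given here.

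The comparison the study was designed for is that between genotypes. On genotype alone, edgeR called 0 of 16836 genes (0%), although 2311 (13.7%) had an unadjusted p under 0.05, and DESeq2 called 688 genes (3.58% of those it tested). Of the 34 genes, 0 were called and 5 had an unadjusted p under 0.05, and DESeq2 called 1, Elovl6. The signs leaned one way over all 14 tumors. The log2 fold change was below 0 for 24 of the 34 genes, against 47.3% of all tested genes, with a median of -0.18 against 0.03. Of the 12 fatty acid enzymes 11 lay below 0 (median -0.48), and of the 17 sterol enzymes 10 did (median -0.07). With the alveolar type 2 score as a covariate the order of the medians was the other way round, at -0.18 for the fatty acid and -0.33 for the sterol enzymes, against -0.01 for all tested genes. On genotype alone, 20 of the 34 lay below 0 with a replicate block, and 21 to 28 without single tumors. Within the clusters, 24 lay below 0 in leukocyte-low tumors (median -0.43, against 0.05 for all tested genes). In leukocyte-high tumors 20 did (median -0.09, against -0.05). The share of all tested genes below 0 is not given here for the block, the left-out tumors or the clusters. The 34 genes were measured in the same tumors, so their signs are not separate evidence.

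Elovl6 was the one gene of the 34 whose genotypes did not overlap. It ranged from 16.3 to 25.6 CPM (median 19.4) in KPY-Ctrl and from 6.90 to 16.1 CPM (median 12.3) in KPY-Setd2KO. Lower CPM without overlap was seen for 0.244% of all tested genes. The log2 fold change was -0.72 (SE 0.20, edgeR adjusted p = 0.158), and DESeq2 gave -0.72 (SE 0.22, adjusted p = 0.0374).

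The other fatty acid enzymes overlapped between genotypes. Acacb ran from 1.48 to 9.84 CPM (median 6.20) in KPY-Ctrl and from 0.968 to 4.59 CPM (median 2.04) in KPY-Setd2KO, with a log2 fold change of -1.26 (SE 0.49, adjusted p = 0.274). Acly ran from 190 to 474 CPM (median 300.1) and from 157 to 299.9 CPM (median 212), with -0.54 (SE 0.23, adjusted p = 0.325). Scd2 ran from 145 to 793 CPM (median 531) and from 90.3 to 575 CPM (median 382.5), with -0.61 (SE 0.46, adjusted p = 0.625). The exception in sign was Scd1, at 165 to 1365 CPM (median 425) in KPY-Ctrl and 637.5 to 2018 CPM (median 948) in KPY-Setd2KO, with a log2 fold change of 0.77 (SE 0.45, adjusted p = 0.481). Its paralog Scd2 thus had the opposite sign, and neither passed the test.

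Among the regulators, Insig2 ran from 14.9 to 19.5 CPM (median 17.6) in KPY-Ctrl and from 16.3 to 32.2 CPM (median 23.9) in KPY-Setd2KO, a log2 fold change of 0.47 (SE 0.16, adjusted p = 0.235). Scap ran from 50.9 to 75.1 CPM (median 54.3) and from 29.0 to 63.2 CPM (median 47.0), with -0.38 (SE 0.20, adjusted p = 0.418). Srebf1 ran from 82.1 to 169 CPM (median 109) and from 57.1 to 123 CPM (median 87.3), with -0.39 (SE 0.24, adjusted p = 0.508). The genotypes overlapped for each of these 3 genes. Srebf2 ran from 104 to 172 CPM (median 145) and from 61.2 to 154 CPM (median 124), with -0.27 (SE 0.20, adjusted p = 0.598). Insig1 ran from 29.1 to 208 CPM (median 59.2) and from 28.7 to 243 CPM (median 70.9), with 0.07 (SE 0.61, adjusted p = 0.978), and its SE was the widest of the 5 regulators.

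Of the sterol enzymes, Lss, which closes squalene epoxide into lanosterol, ran from 24.7 to 31.9 CPM (median 30.9) in KPY-Ctrl and from 16.1 to 30.6 CPM (median 22.1) in KPY-Setd2KO, a log2 fold change of -0.42 (SE 0.16, adjusted p = 0.267). Fdps ran from 79.4 to 229 CPM (median 99.99) and from 55.2 to 106 CPM (median 89.4), with -0.47 (SE 0.24, adjusted p = 0.406). Without KPY-Ctrl replicate 6, the highest tumor, the value for Fdps was -0.17. Mvd, Tm7sf2, Ebp and Dhcr7 had log2 fold changes of -0.07, -0.08, 0.05 and 0.04, with adjusted p from 0.921 to 0.986, and these 4 and Insig1 changed sign when single tumors were left out. Insig1, Ebp and Dhcr7 also turned negative with scaling by library size alone, which moved the median over all genes from 0.03 to -0.11. The remaining 18 genes lay between Fasn at -0.76 and Cyp51 at 0.34, the ends of their range, and none was called.

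**Figure D4:**
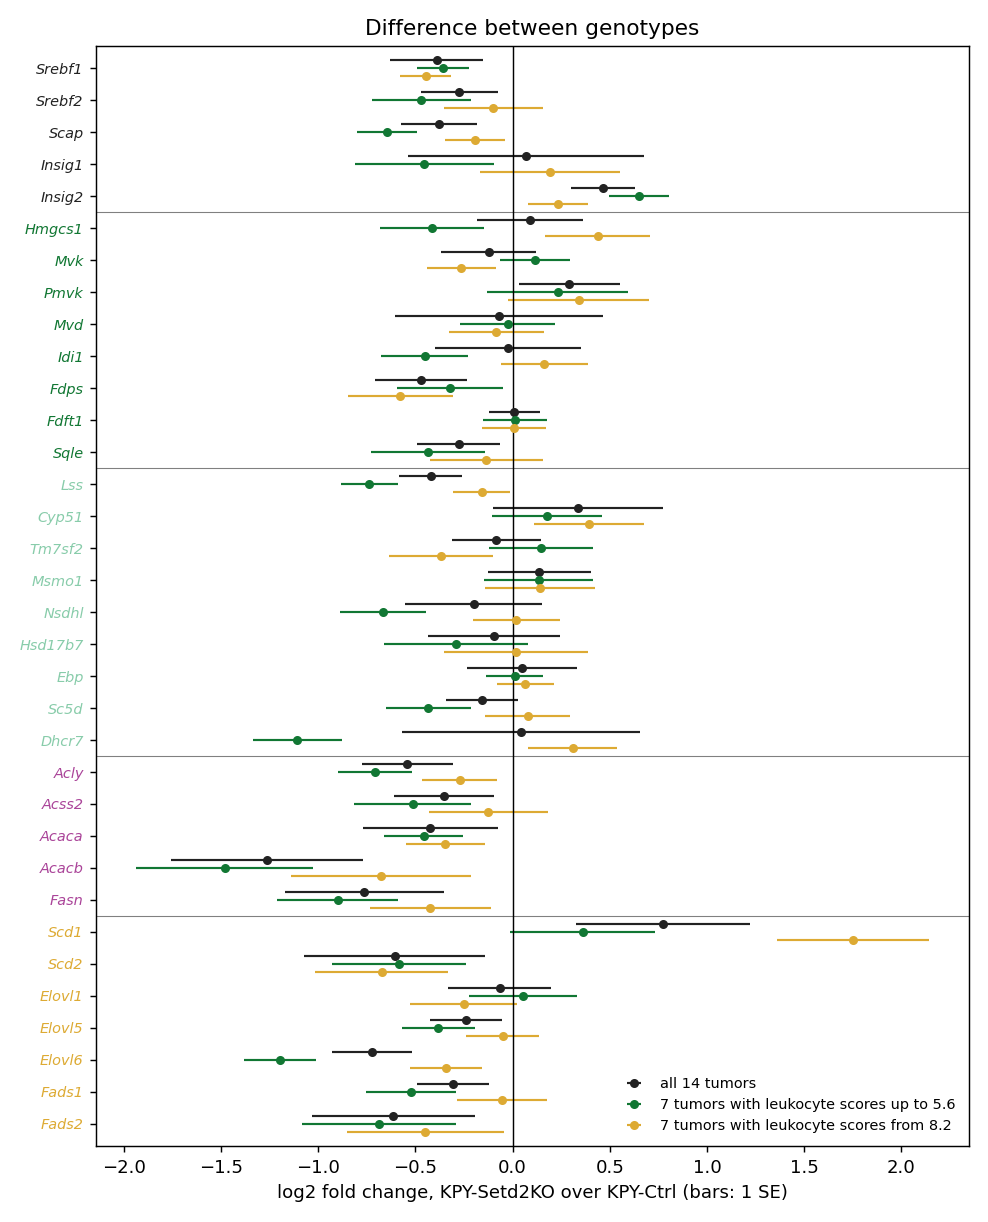
Log2 fold change of KPY-Setd2KO over KPY-Ctrl with 1 SE for the 34 genes, in all 14 tumors and within the 7 leukocyte-low and the 7 leukocyte-high tumors. Elovl6 at -0.72 over all tumors lies at -1.20 among leukocyte-low and -0.34 among leukocyte-high tumors, and Dhcr7 at 0.04 over all tumors lies at -1.11 and 0.31.

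With the leukocyte score as a covariate the spread around the fit was smaller, and 979 genes (5.81%) were called, 3.27% higher and 2.55% lower. Of the 34 genes, 3 were called. Insig2 was higher in KPY-Setd2KO (log2 fold change 0.47, SE 0.13, adjusted p = 0.0428), and Lss (-0.48, SE 0.12, adjusted p = 0.0377) and Elovl6 (-0.79, SE 0.18, adjusted p = 0.0264) were lower. Now 28 of the 34 lay below 0, against 51.3% of all tested genes, with a median of -0.25. Just short of the threshold were Scap (-0.45, SE 0.13, adjusted p = 0.0563), Scd1 (1.17, SE 0.35, adjusted p = 0.0618) and Srebf1 (-0.33, SE 0.11, adjusted p = 0.0747). The count of 3 was not firm. It was 0 without KPY-Ctrl replicate 4, KPY-Ctrl replicate 5 or KPY-Setd2KO replicate 6, and 1 without KPY-Setd2KO replicate 7 or replicate 8. Scaled by library size alone it was 5, of which 0 were higher and 5 lower. With the alveolar type 2 score as the covariate 3 genes were called, Scd1 higher and Scap and Elovl6 lower (2% of all tested genes, 1.69% higher and 0.309% lower). With both scores there were 5 (6.75% of all, 4.3% higher and 2.45% lower), Srebf2 (-0.54), Scap (-0.54) and Elovl6 (-0.92) lower and Insig2 (0.49) and Scd1 (1.38) higher.

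The genotypes were then compared within each cluster, in 1 fit of the 4 combinations of genotype and cluster, added after the clusters were seen. Among the 7 leukocyte-low tumors, 8.62% of all tested genes were called (4.87% higher, 3.75% lower), and 6 of the 34 genes were, 1 higher and 5 lower. Elovl6 was 16.3 to 25.6 CPM in the 3 KPY-Ctrl and 6.90 to 11.0 CPM in the 4 KPY-Setd2KO tumors (log2 fold change -1.20, SE 0.18, adjusted p = 0.00564). Dhcr7 was 21.3 to 25.3 CPM against 8.07 to 14.6 CPM (-1.11, SE 0.23, adjusted p = 0.0158), and Lss was 25.9 to 31.3 CPM against 16.1 to 19.7 CPM (-0.74, SE 0.15, adjusted p = 0.0141). None of these ranges overlapped. Scap was 50.9 to 55.0 CPM against 29.0 to 40.5 CPM (-0.65, SE 0.16, adjusted p = 0.0274), and Acly was 333 to 474 CPM against 206 to 299.9 CPM (-0.71, SE 0.19, adjusted p = 0.0394). Insig2 was the gene that was higher, at 17.4 to 19.1 CPM against 25.5 to 32.2 CPM (0.65, SE 0.16, adjusted p = 0.0274). Thus RNA of Scap was lower and RNA of Insig2 higher, beside lower RNA of the called enzymes of both routes. Insig1, whose protein also retains SREBPs, had the opposite sign to Insig2 and was not called (-0.46, SE 0.36, adjusted p = 0.434). The activity of SREBPs was not measured.

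In these 7 tumors 13 of the 34 genes were lower without overlap, 7 of them fatty acid enzymes and 4 sterol enzymes, against 13.8% of all tested genes. Insig2 was the 1 gene that was higher without overlap, against 13% of all. Besides the 6 called genes these were Srebf1, Nsdhl, Sc5d, Acaca, Acacb, Fasn, Scd2 and Fads2. Fasn, for instance, was 786 to 889 CPM in KPY-Ctrl and 359.5 to 527 CPM in KPY-Setd2KO (log2 fold change -0.90, SE 0.31, adjusted p = 0.0824). The alveolar type 2 score of the same tumors was 10.61 to 10.76 in KPY-Ctrl and 9.41 to 10.91 in KPY-Setd2KO, and its part in these differences was not tested. KPY-Ctrl replicates 4 and 5 were the most alike of any pair in a genotype, with a chi-square per gene of 20.98 against 71.2 for the next pair, which is above sampling noise, and they were kept as 2 tumors. The count of 6 called genes was 1, Elovl6, without KPY-Ctrl replicate 4 or replicate 5, and 2 (Elovl6 and Lss) without KPY-Setd2KO replicate 6. It was 10 with DESeq2, whose share of all genes called in this fit is not given here. Insig2 was no longer called with scaling by library size alone. Setd2 itself had a log2 fold change of -1.26 (SE 0.21, adjusted p = 0.00778) in the leukocyte-low tumors.

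Among the 7 leukocyte-high tumors edgeR called 0 of the 34 genes and 1 of all tested genes (0.00594%), with 2 of the 34 at an unadjusted p under 0.05. DESeq2 called 2 of the 34, Srebf1 and Scd1, and the share of all genes it called in this fit is not given here. Setd2 had a log2 fold change of -0.34 (SE 0.21, adjusted p = 0.469) there. Scd1 was 165 to 298 CPM in KPY-Ctrl and 637.5 to 998 CPM in KPY-Setd2KO (1.75, SE 0.39, adjusted p = 0.133), which did not overlap, as for 7.03% of all tested genes in that direction. Srebf1 was 82.1 to 90.0 CPM against 57.1 to 69.1 CPM (-0.45, SE 0.13, adjusted p = 0.178), where 6.37% of all tested genes were lower without overlap. Srebf1 and Elovl6 were the 2 genes that were lower without overlap on both sides of the gap, as were 1.88% of all tested genes, and 0 of the 34 were higher on both sides, against 2.14%. Dhcr7 was 43.5 to 71.7 CPM against 66.4 to 97.8 CPM (0.31, SE 0.23, adjusted p = 0.543).

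A test of the difference between the clusters called 0 of the 34 genes and 7 of all tested genes (0.0416%) with edgeR. With DESeq2 it called 1 of the 34, Dhcr7, and the share of all genes called by DESeq2 is not given here. By edgeR 6 of the 34 had an unadjusted p under 0.05. The largest difference was that of Dhcr7, whose fold change was higher by 1.42 on the log2 scale in the leukocyte-high tumors (SE 0.32, adjusted p = 0.141). Scd1 followed at 1.39 (SE 0.53, adjusted p = 0.266) and Elovl6 had 0.86 (SE 0.26, adjusted p = 0.2). A different response of the clusters to the genotype was thus not detected by edgeR for any of the 34 genes.

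**Figure D5:**
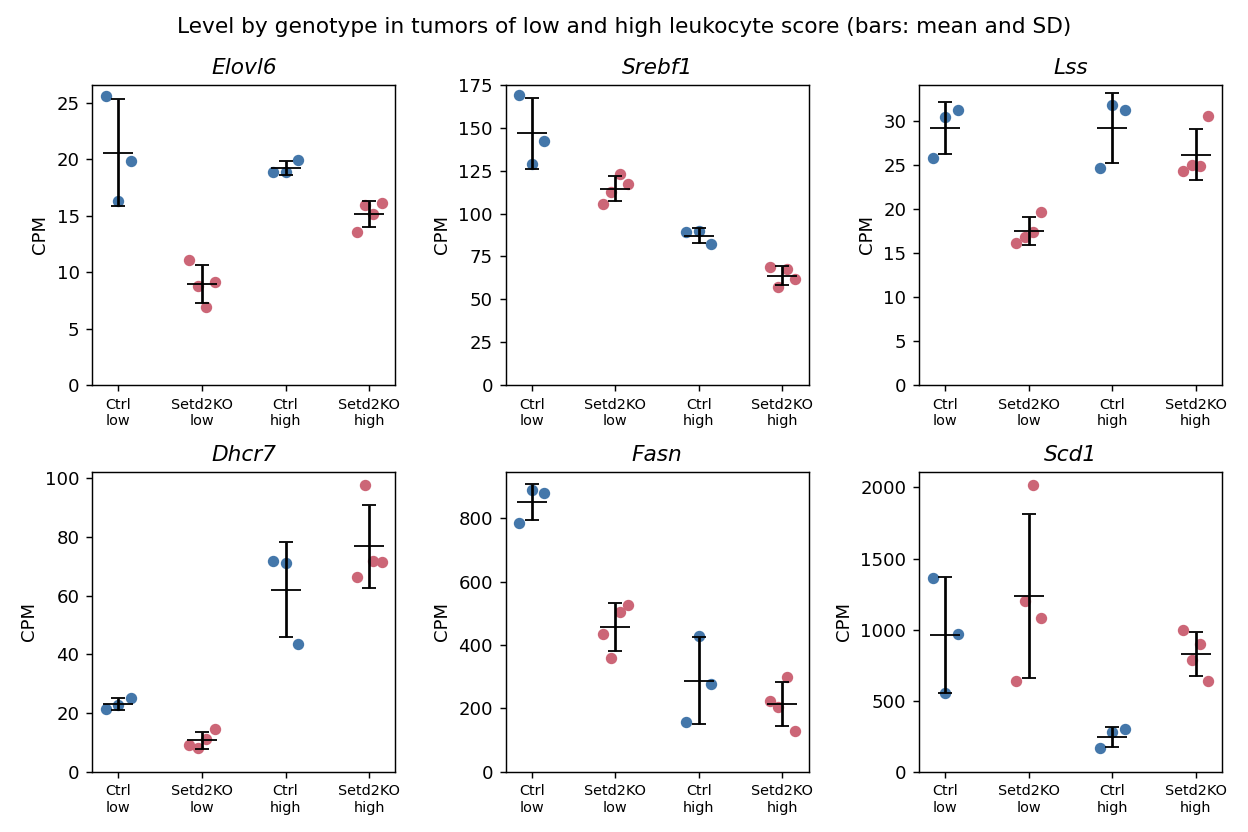
CPM of Elovl6, Srebf1, Lss, Dhcr7, Fasn and Scd1 in each tumor (points), with mean and SD, for KPY-Ctrl and KPY-Setd2KO tumors of low (3 and 4 tumors) and high (3 and 4 tumors) leukocyte score. Elovl6 and Srebf1 are lower in KPY-Setd2KO without overlap on both sides, the genotypes of Lss, Dhcr7 and Fasn do not overlap at low and overlap at high scores, those of Scd1 overlap at low and not at high scores, and edgeR called the difference between the sides for none of these genes (adjusted p from 0.141 for Dhcr7 to 0.87 for Srebf1).

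Neighbouring parts of lipid metabolism were read from the same fits. Of 8 further genes of sterol synthesis and uptake, edgeR called 0 on genotype alone or with the leukocyte score, with 2 and 5 at an unadjusted p under 0.05. DESeq2 called 1 on genotype alone (3.58% of all), Ggps1, which makes geranylgeranyl diphosphate and was named after its values were seen (log2 fold change 0.31, SE 0.10, adjusted p = 0.0495), and 2 with the leukocyte score (12.3% of all), Ggps1 and Stard4. Stard4, a carrier of free sterol, had the smallest edgeR p on genotype alone, at 23.1 to 58.7 CPM in KPY-Ctrl and 12.4 to 35.3 CPM in KPY-Setd2KO (log2 fold change -0.75, adjusted p = 0.218). Of 8 genes of sterol efflux, storage and the liver X receptors, edgeR called 0 on genotype alone, with 3 at an unadjusted p under 0.05, and 1 with the leukocyte score, and DESeq2 called 2 lower in either fit, Abca1 among them. The gene edgeR called was Abca1, the exporter of cholesterol to apolipoproteins, at 10.7 to 32.6 CPM (median 19.2) in KPY-Ctrl and 7.32 to 14.4 CPM (median 10.8) in KPY-Setd2KO, a log2 fold change of -0.89 with the leukocyte score held (adjusted p = 0.047). Of 15 further genes of fatty acid, triglyceride and phospholipid synthesis, 14 were tested and edgeR called 0 in either fit, with 1 and 2 at an unadjusted p under 0.05, while DESeq2 called 0 on genotype alone and 1 with the leukocyte score. That was the citrate carrier Slc25a1, also the smallest p of these by edgeR, with a log2 fold change of 0.38 (adjusted p = 0.237). Of 12 genes of fatty acid uptake and oxidation edgeR called 0 in either fit, with 1 and 3 at an unadjusted p under 0.05, and DESeq2 called 0 on genotype alone and 1 with the leukocyte score, the fatty acid carrier Fabp4, named after its values were seen (0.86, SE 0.29, adjusted p = 0.0283). By edgeR, Cpt2, which hands acyl groups to the mitochondrial matrix, had -0.37 (adjusted p = 0.251).

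The neighbours also varied with the leukocyte score, in the fit that called 57.4% of all tested genes, 28.6% higher and 28.8% lower. Of the 12 genes of uptake and oxidation 7 rose and 0 fell, of the 14 tested genes of lipid assembly 3 rose and 6 fell, of the 8 of sterol synthesis and uptake 2 rose and 0 fell, and of the 8 of efflux and storage 3 rose and 0 fell. Counted in both directions together, the share called in each list was thus near or below the background. By direction the lists were uneven. The 7 of 12 genes of uptake and oxidation that rose compare with 28.6% of all tested genes. The 6 of 14 genes of lipid assembly that fell compare with 28.8%. Npc1, which releases sterol from lysosomes and was named after its values were seen, rose with a slope of 0.31 (adjusted p = 1.95e-04).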

How the data were processed

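RNA was measured in 14 mouse lung tumors. The deposited values are estimated counts for each gene, all whole numbers, which the authors made with Salmon 0.8.2 against GRCm38.p5 per the submitters' processing notes. The labels name an RNeasy Mini and TruSeq Stranded preparation from cell lines, while the study's methods describe sorted tumor cells and other kits, and this difference could not be settled. Replicates were not pooled, and the deposited table named a sample in every column. Of 52550 rows, 52403 were matched to symbols with the GENCODE annotation of GRCm38.

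Counts were filtered (filterByExpr), scaled by TMM and tested with the edgeR 4.0.16 quasi-likelihood test (robust) in R 4.3.3, with Benjamini-Hochberg adjustment over 16836 genes and a threshold of 0.05. SE is the absolute log2 value divided by the square root of F. Scores are means of log2 CPM with a prior count of 2, and RPKM uses union exon length. The fits held genotype, genotype with 1 or both scores, or genotype by cluster. DESeq2 1.42.0, other scalings, other filters, a replicate block and leaving out each tumor were alternatives. The 34 genes, marker lists and tests were chosen with earlier results of these data known. The genes given with values were the regulators and, per role group, those with the smallest p, largest change, highest level or steepest slopes, and others are said to be named after their values were seen. Intervals for single counts were not needed, since values were compared over tumors at the depths given. On simulated data of 16836 genes with 200 changed by 1.5 on the log2 scale, 35% were recovered on genotype alone, 70% with the leukocyte score and 40.5% within the leukocyte-low tumors. Some items of the design and of the pathway lists are not reported here.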

Additional observations from a re-analysis of the deposited data

Results flagged for a closer look

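The value of 1 tumor stood far from the others of its genotype for 2 genes, out of 68 gene and genotype groups examined, where chance alone marks about 1 in 20 groups. Fdps was at 7.84 log2 CPM in KPY-Ctrl replicate 6, and between 6.31 and 6.74 in the remaining tumors of that genotype. Sqle was at 3.79 log2 CPM in KPY-Setd2KO replicate 7, and between 4.82 and 5.52 in the remaining tumors. The cause of either value was not tested.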

How the results depend on the processing

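On genotype alone, the 34 genes had 0 calls under every scaling, filter and left-out tumor, but 1 with DESeq2, 3 with the leukocyte score as covariate, 3 with the alveolar type 2 score and 5 with both. All genes called were then 688, 979, 336 and 1137 in turn, and 0 to 1 with single tumors left out (1 without KPY-Ctrl replicate 6). Setd2 passed the threshold with the leukocyte score (-0.83). With that covariate the 3 calls became 6 with DESeq2 (2 higher, 4 lower), 5 with library size only, 1 with no filter, and 0 to 3 without single tumors. Within the leukocyte-low tumors the 6 calls became 10 with DESeq2 and 1 to 8 without single tumors. DESeq2 gave 2 calls in the leukocyte-high tumors and 1 for the difference, where edgeR had 0. The shares of all genes called by DESeq2 in these fits by cluster are not given here. The slope on the alveolar type 2 score with the leukocyte score held (7 calls) gave 4 with library size only, 4 with no filter and 1 to 7 without single tumors. With the term for the side of the gap, slopes were called for 0 genes on the leukocyte score, 1 on the alveolar type 2 score and 0 on the latter with the leukocyte score held.

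Signs turned for Insig1, Ebp and Dhcr7 with library size only (-0.088, -0.10 and -0.15) and with the leukocyte score (-0.19, -0.043 and -0.58). Without single tumors they ran from -0.26 to 0.46 for Insig1, -0.043 to 0.19 for Ebp, -0.24 to 0.26 for Dhcr7, -0.28 to 0.18 for Mvd and -0.17 to 0.034 for Tm7sf2. The cause was not tested.

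Deviations of same-numbered tumors from their genotype means had correlations of 0.522, 0.602, -0.483, -0.664, 0.657 and -0.355 for replicates 1 to 6. They were positive where both tumors lay in the same leukocyte cluster (replicates 1, 2 and 5) and negative where they did not (3, 4 and 6). The check therefore follows the clusters and cannot show whether the numbers are pairs. The labels name no pairs, and the numbers were not taken as such. With a replicate block, calls fell from 3 to 0 for genotype with the leukocyte score, from 23 to 12 on the leukocyte score, from 25 to 3 on the alveolar type 2 score and from 7 to 0 with the leukocyte score held, and Mvd turned to 0.10. On genotype alone the block left 0 calls.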
